A study of Homo sapiens with 6 samples.

Results

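The genes described here are 10 regulators of the G1 phase of the cell cycle, taken by symbol from a table of 21512 genes: CCND1, CCND3, CCNE2, CDKN1B, CDKN2C, SKP2, MYC, RB1, RBL1 and E2F1. All 10 were in the table and all 10 passed the filter of a mean of at least 20 counts, as did 13885 genes in all. They were read in 6 RNA sequencing libraries of human prostate cancer cells, 1 library for each of 2 lines and 3 treatments. BicR is named in the labels as a prostate cancer line, and its derivation is not given in the sources used here. LNCaP is an established prostate cancer line that responds to androgen. Before treatment, both lines spent 3 days in a phenol red-free medium whose 2.5% serum had been charcoal-stripped to lower its steroid hormones. They were then given 10 nM dihydrotestosterone (DHT, an androgen), 1 µM bicalutamide (an antiandrogen that binds the androgen receptor) or ethanol, the vehicle, for 24 h. Each group was therefore BicR under DHT, BicR under bicalutamide, BicR under ethanol, LNCaP under DHT, LNCaP under bicalutamide or LNCaP under ethanol, with 1 library each, so a difference within a line has no replicate check.

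In G1, D-type cyclins such as CCND1 and CCND3 activate CDK4 and CDK6, and E-type cyclins such as CCNE2 activate CDK2. These kinases phosphorylate the pocket proteins RB1 and RBL1, which otherwise hold back E2F factors, and freed E2F1 drives genes of DNA synthesis. CDKN2C (p18) binds CDK4 and CDK6, CDKN1B (p27) restrains CDK2 complexes, SKP2 is the ubiquitin ligase subunit that marks p27 for destruction, and MYC is a growth-promoting transcription factor. In prostate cancer cells, androgen is known to affect the passage through G1, and the androgen dose shapes whether cells divide.

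E2F1 and RBL1 are shown first by their upstream sequence, because both hold more than 1 copy of the letters an E2F factor binds close to the start of the gene. The sequences come from RefSeq (GRCh38.p14, a later build than that of the counts), run 5′ to 3′ on the strand of the gene and end at the base before the listed start. Capitals mark the searched letters.
E2F1, chr20:33686386-33686505, minus strand: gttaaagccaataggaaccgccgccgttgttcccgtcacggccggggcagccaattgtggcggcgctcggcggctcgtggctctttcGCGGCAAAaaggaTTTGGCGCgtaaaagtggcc
RBL1, chr20:37095998-37096117, minus strand: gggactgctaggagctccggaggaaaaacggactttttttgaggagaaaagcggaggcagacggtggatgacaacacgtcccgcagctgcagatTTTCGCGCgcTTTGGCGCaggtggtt
CDKN2C, chr1:50968564-50968705, plus strand: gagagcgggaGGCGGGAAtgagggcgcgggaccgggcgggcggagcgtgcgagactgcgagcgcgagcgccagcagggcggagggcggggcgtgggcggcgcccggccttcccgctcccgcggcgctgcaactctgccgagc

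The letters searched were TTTCGCGC, TTTGGCGC, TTTCCCGC, TTTGCCGC and TTCCCGCC on both strands of the 250 bases before a start, and they were chosen with these promoters in view. In E2F1 the first letters of the copies lie 33 and 20 bases before the start, and in RBL1 they lie 26 and 16 bases before it. CDKN2C, shown for comparison, holds 1 copy 132 bases before 1 of its 3 listed starts, which lies 7961 bases inside the gene in GENCODE v29. Over the 11 windows listed for 7 of the genes, 3 held the letters (27.3%), against 4.76% of the 35116 windows in the table. At least 2 copies were in 2 of the 11 windows, against 0.877% of all windows. Because the letters were chosen with these promoters in view, these shares cannot show whether the letters are enriched in the 11 windows. Of the 26 windows of E2F target genes, 12 held the letters (46.2%). The E-box CACGTG, the letters MYC and its partners bind, was in 2 of the 11 windows, both at starts of CDKN2C, and in 6.35% of all windows. A match is a description of letters, not a binding site. Other windows also belong to starts far inside their genes, that of RB1 by 172724 bases and those of CCND3 by up to 111152 bases, and may not be the main promoters. CCND1, CCNE2 and MYC are named only.

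Total counts ran from 42162723 to 55917016 per library. Levels below are CPM, counts per 1000000 counts of the library after TMM scaling of library sizes. Each ratio of a pair of libraries is followed by its exact 95% interval, which covers counting error only. DHT raised the androgen-regulated kallikrein genes KLK2 and KLK3 over both lines against ethanol, by 2.88 and 1.93 on the log2 scale (edgeR, adjusted p = 0.0135 and 0.0330). Neither passed without the LNCaP or the BicR bicalutamide library (edgeR, adjusted p = 0.334 to 0.365), nor did KLK3 without the BicR DHT library (edgeR, adjusted p = 0.0790) or in limma on RPKM (adjusted p = 0.0669). The defining immune, endothelial and fibroblast markers PTPRC, CDH5 and COL1A2 had 0 counts in all 6 libraries, while other genes of those lists, CD68, VWF and COL1A1, had counts in each. The LNCaP ethanol library stood apart. The chaperone gene HSPA5 took 0.790% of its counts, against 0.131% to 0.164% in the other libraries, and the summed level of 21 mitosis genes was 96.7 CPM in it, against 351 to 614 CPM elsewhere. Each ratio of DHT to ethanol in LNCaP is therefore followed, for the 10 genes, by the ratio of DHT to bicalutamide. The LNCaP bicalutamide library differed in another trait. In it 86 ribosomal protein genes took 3.91% of the counts, against 6.33% in LNCaP under DHT and 5.73% in LNCaP under ethanol. In BicR they took 3.81% to 4.04%. The part of this trait in the ratios to bicalutamide, and in the ratios of BicR to LNCaP under DHT and ethanol, was not tested.

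The genes spanned a wide range of levels. Per length, in the RPKM of the authors, MYC had the highest median over the libraries, 94.0 RPKM, followed by CCND1 at 68.1 RPKM. CDKN1B and CCND3 had medians of 22.7 and 17.7 RPKM, RB1 had 5.62 RPKM, SKP2 4.25 RPKM, E2F1 2.85 RPKM, CDKN2C 2.18 RPKM and RBL1 1.64 RPKM. CCNE2 was the lowest at 0.813 RPKM and rested on 79 to 198 counts per library. Thus, among the 10 genes, CCND1, CCND3 and MYC lay above E2F1, RB1 and RBL1 in RPKM in every library. The highest library exceeded the lowest by 2.39-fold in CPM for E2F1, 2.02-fold for CCNE2 and 1.23-fold for CDKN1B, the narrowest. A range of at least 2-fold was reached by 2 of the 10 genes, against 28.3% of all genes tested, whose median range was 1.63-fold.

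**Figure D1:**
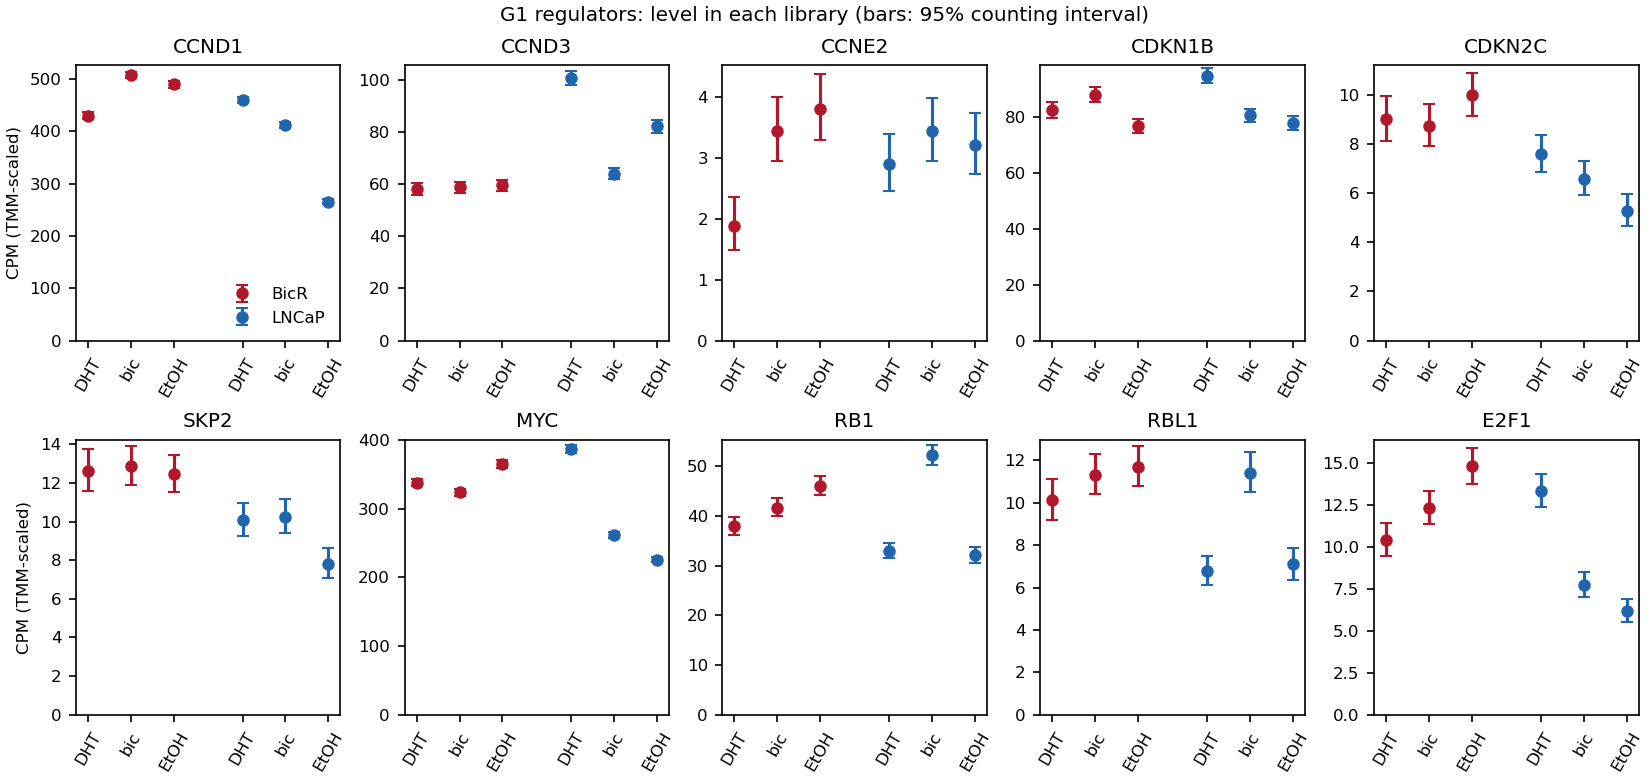
Level of each G1 regulator in each library, in TMM-scaled CPM on a linear axis from 0, for BicR (red) and LNCaP (blue) under DHT, bicalutamide (bic) and ethanol (EtOH); bars are exact 95% counting intervals. LNCaP under ethanol is the lowest library for CCND1, CDKN2C, SKP2, MYC, RB1 and E2F1, while RB1 in LNCaP is highest under bicalutamide, at 52.2 CPM.

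In LNCaP, DHT went with higher levels of E2F1, CCND1 and MYC than ethanol, while in BicR the same genes were lower under DHT than under ethanol. In LNCaP 3 of the 10 genes were at least 1.5-fold higher under DHT than under ethanol, where 4.88% of all genes were, and 0 were at least 1.5-fold lower, where 5.29% were. In BicR 0 of the 10 were at least 1.5-fold higher, against 4.23% of all genes, and 1 was at least 1.5-fold lower, against 4.55%. The direction was higher in LNCaP and lower in BicR for 6 of the 10 genes (CCND1, CCND3, CDKN2C, MYC, RB1 and E2F1), a pattern that 25.5% of all genes showed. The direction was not distinct beyond counting error for RB1 in LNCaP, at 1.03 (0.958 to 1.10). The same held in BicR for CCND3, at 0.976 (0.925 to 1.03), and CDKN2C, at 0.900 (0.786 to 1.03). Against bicalutamide in place of ethanol, 4 of the 10 showed it (CCND1, CCND3, CDKN1B and E2F1), and 23.5% of all genes. Here CCND3 in BicR was again not distinct, at 0.987 (0.935 to 1.04). The difference between the lines could not be tested with 1 library per line and treatment.

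CCND1, the D cyclin best known in prostate and breast cancers, had 429.8 CPM under DHT, 507 CPM under bicalutamide and 489.6 CPM under ethanol in BicR, and 459 CPM under DHT, 411 CPM under bicalutamide and 265 CPM under ethanol in LNCaP. The LNCaP ethanol library was the low one, and the other 5 lay within a narrow band. In LNCaP the level under DHT was 1.73-fold that under ethanol (95% counting interval 1.69 to 1.77) but 1.12-fold that under bicalutamide (1.10 to 1.14). In BicR DHT gave 0.878 of the ethanol level (0.861 to 0.895) and 0.847 of the bicalutamide level (0.831 to 0.864).

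CCND3, another D cyclin, followed a different pattern. It had 58.0 CPM under DHT, 58.7 CPM under bicalutamide and 59.4 CPM under ethanol in BicR, and 100.4 CPM under DHT, 64.0 CPM under bicalutamide and 82.0 CPM under ethanol in LNCaP. In BicR the treatments did not separate beyond counting error, with a DHT to ethanol ratio of 0.976 (0.925 to 1.03). In LNCaP the level under DHT was 1.57-fold that under bicalutamide (1.503 to 1.64) and 1.22-fold that under ethanol (1.17 to 1.27). Within a library the RPKM of CCND1 was 4.19 to 4.88 times that of CCND3 in BicR and 1.83 to 3.63 times in LNCaP, ranges that did not overlap.

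CCNE2, the E-type cyclin of the set, had the lowest ratios of DHT to ethanol and to bicalutamide in BicR among the 10 genes. It had 1.88 CPM under DHT, 3.44 CPM under bicalutamide and 3.80 CPM under ethanol in BicR, and 2.89 CPM under DHT, 3.43 CPM under bicalutamide and 3.20 CPM under ethanol in LNCaP. Apart from BicR under DHT, neighbouring libraries did not separate beyond counting error. The DHT level in BicR was 0.495 of the ethanol level (0.377 to 0.646) and 0.548 of the bicalutamide level (0.414 to 0.720). In LNCaP the ratio was 0.904 to ethanol (0.720 to 1.13) and 0.843 to bicalutamide (0.676 to 1.05), intervals that include 1. In BicR, CCNE2 was the 1 gene of the 10 at least 1.5-fold lower under DHT than under bicalutamide, where 4.49% of all genes were, and 0 were higher, where 3.82% were.

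Of the inhibitors, CDKN1B had the narrowest range of the 10 genes and CDKN2C, at 1.89-fold, a range above the 1.63-fold median of all genes. CDKN1B had 82.5 CPM under DHT, 88.1 CPM under bicalutamide and 76.8 CPM under ethanol in BicR, and 94.8 CPM under DHT, 80.6 CPM under bicalutamide and 77.9 CPM under ethanol in LNCaP. The highest of these libraries was LNCaP under DHT, 1.22-fold above LNCaP under ethanol (1.17 to 1.27) and 1.18-fold above LNCaP under bicalutamide (1.13 to 1.23). CDKN2C had 8.99 CPM under DHT, 8.73 CPM under bicalutamide and 9.99 CPM under ethanol in BicR, and 7.57 CPM under DHT, 6.58 CPM under bicalutamide and 5.28 CPM under ethanol in LNCaP. All 3 BicR libraries lay above all 3 LNCaP libraries. In LNCaP CDKN2C under DHT was 1.43-fold its level under ethanol (1.23 to 1.68), and the ratio to bicalutamide was 1.15 with an interval of 0.995 to 1.33 that includes 1.

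SKP2, the partner of CDKN1B in p27 turnover, had 12.6 CPM under DHT, 12.9 CPM under bicalutamide and 12.4 CPM under ethanol in BicR, and 10.1 CPM under DHT, 10.2 CPM under bicalutamide and 7.82 CPM under ethanol in LNCaP. The BicR libraries did not separate from one another beyond counting error and all lay above LNCaP. In LNCaP the DHT level was 1.29-fold the ethanol level (1.13 to 1.47) and 0.986 of the bicalutamide level (0.874 to 1.11). The RPKM ratio of SKP2 to CDKN1B was 0.196 to 0.217 in BicR libraries and 0.135 to 0.170 in LNCaP libraries.

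MYC had 338 CPM under DHT, 323 CPM under bicalutamide and 365 CPM under ethanol in BicR, and 387 CPM under DHT, 262 CPM under bicalutamide and 226 CPM under ethanol in LNCaP. LNCaP under DHT was the highest library and the other LNCaP libraries were the lowest. In LNCaP DHT gave 1.71-fold the ethanol level (1.67 to 1.75) and 1.48-fold the bicalutamide level (1.45 to 1.51). In BicR it gave 0.926 of the ethanol level (0.906 to 0.946) and 1.04-fold the bicalutamide level (1.02 to 1.07).

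RB1 and RBL1 shared a pattern in LNCaP, where bicalutamide gave the high library and DHT and ethanol gave similar ones. RB1 had 38.0 CPM under DHT, 41.7 CPM under bicalutamide and 46.1 CPM under ethanol in BicR, and 33.0 CPM under DHT, 52.2 CPM under bicalutamide and 32.2 CPM under ethanol in LNCaP. RBL1 (p107) had 10.1 CPM under DHT, 11.3 CPM under bicalutamide and 11.7 CPM under ethanol in BicR, and 6.78 CPM under DHT, 11.4 CPM under bicalutamide and 7.10 CPM under ethanol in LNCaP. In LNCaP DHT gave 0.632 of the bicalutamide level of RB1 (0.595 to 0.671) and 0.593 of that of RBL1 (0.520 to 0.677). Against ethanol the LNCaP ratios were 1.03 for RB1 (0.958 to 1.10) and 0.955 for RBL1 (0.823 to 1.11), intervals that include 1. These were the 2 genes of the 10 at least 1.5-fold lower under DHT than under bicalutamide in LNCaP, where 7.03% of all genes were. The 2 at least 1.5-fold higher there were E2F1 and CCND3, where 8.87% of all genes were.

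E2F1 had the widest range. It had 10.4 CPM under DHT, 12.4 CPM under bicalutamide and 14.8 CPM under ethanol in BicR, and 13.4 CPM under DHT, 7.74 CPM under bicalutamide and 6.20 CPM under ethanol in LNCaP. In LNCaP DHT was the high library, and in BicR it was the low one. In LNCaP the DHT level was 2.16-fold that under ethanol (1.89 to 2.47) and 1.73-fold that under bicalutamide (1.53 to 1.96). In BicR it was 0.705 of the ethanol level (0.625 to 0.793) and 0.846 of the bicalutamide level (0.746 to 0.958). The RPKM of E2F1 was 0.716 of that of RB1 in LNCaP under DHT, 0.262 in LNCaP under bicalutamide and 0.341 in LNCaP under ethanol, and 0.486 to 0.568 in the BicR libraries. In bulk RNA, fewer cells in a phase of the cycle and less RNA per cell cannot be told apart.

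**Figure D2:**
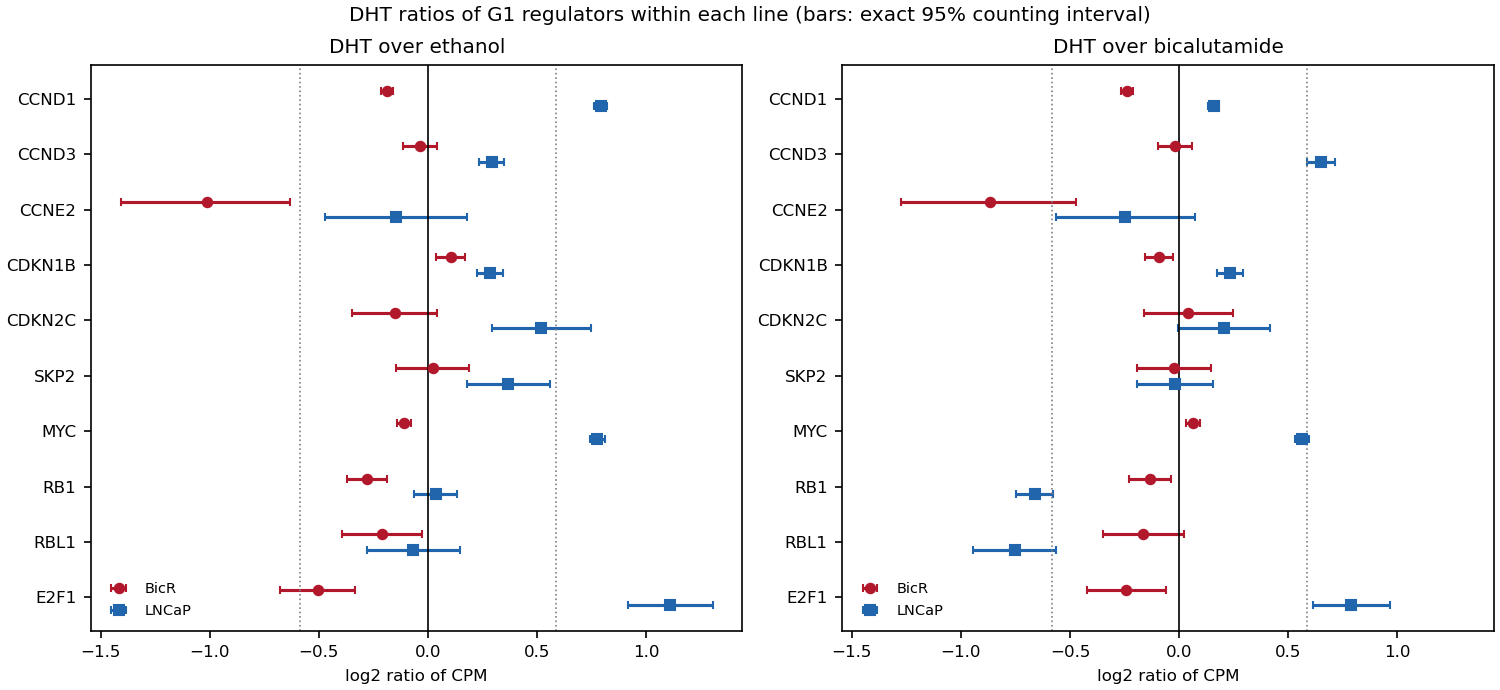
Log2 ratio of CPM under DHT over ethanol (left) and over bicalutamide (right) for each G1 regulator in BicR (red circles) and LNCaP (blue squares); bars are exact 95% counting intervals and dotted lines mark 1.5-fold. E2F1 lies right of 0 in LNCaP and left of 0 in BicR in both panels, while CCND1 in LNCaP moves from 1.73-fold over ethanol to 1.12-fold over bicalutamide.

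Bicalutamide against ethanol separated the G1 genes in LNCaP more than in BicR. In LNCaP 3 of the 10 were at least 1.5-fold higher under bicalutamide, RB1 at 1.62-fold (1.53 to 1.73), RBL1 at 1.61-fold (1.41 to 1.84) and CCND1 at 1.55-fold (1.52 to 1.59), where 6.52% of all genes were, and 0 were lower, where 7.94% were. In BicR 0 of the 10 reached 1.5-fold in either direction, where 0.0504% of all genes were higher and 0.108% were lower. The widest BicR ratios of these were 0.833 for E2F1 (0.748 to 0.928) and 1.15 for CDKN1B (1.10 to 1.20). All 3 LNCaP calls rest on the LNCaP ethanol library, and in it RB1 and RBL1 did not differ from LNCaP under DHT beyond counting error.

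Across the lines, BicR had more CDKN2C and SKP2 mRNA and less CCND3 mRNA than LNCaP under every treatment, but none of the differences passed the test over the treatments. All 3 BicR libraries lay above all 3 LNCaP libraries for 2 of the 10 genes, CDKN2C and SKP2, against 16.6% of all genes, and below them for 1, CCND3, against 16.8%. These counts are close to the shares of all genes and do not set the 10 genes apart. The counts were the same without the LNCaP ethanol library, a split for which no share of all genes is given here. CDKN2C in BicR was 1.19-fold its level in LNCaP under DHT (1.03 to 1.37), 1.33-fold under bicalutamide (1.15 to 1.53) and 1.89-fold under ethanol (1.63 to 2.20). SKP2 was 1.25-fold under DHT (1.11 to 1.41), 1.26-fold under bicalutamide (1.12 to 1.41) and 1.59-fold under ethanol (1.40 to 1.81). CCND3 was 0.577 of its LNCaP level under DHT (0.550 to 0.606), 0.918 under bicalutamide (0.873 to 0.965) and 0.724 under ethanol (0.691 to 0.759). For SKP2 and CDKN2C the counting intervals under DHT and bicalutamide overlapped, and the ethanol pair, which uses the LNCaP ethanol library, gave the widest difference. For CCND3 the intervals under the 3 treatments did not overlap. Its ratio nearest to 1 was under bicalutamide, where ribosomal protein genes took 3.91% of the counts in both lines. The part of that trait in the CCND3 difference was not tested.

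Under ethanol 6 of the 10 reached 1.5-fold higher levels in BicR than in LNCaP, against 8.43% of all genes, and 0 were lower, against 12.8%. They were E2F1 at 2.39-fold (2.09 to 2.74), CDKN2C, CCND1 at 1.85-fold (1.81 to 1.89), RBL1 at 1.65-fold (1.44 to 1.88), MYC at 1.62-fold (1.58 to 1.65) and SKP2. This comparison uses the LNCaP ethanol library, and fewer genes reached 1.5-fold where it was not used. Under bicalutamide 1 of the 10, E2F1, was at least 1.5-fold higher in BicR, at 1.60-fold (1.40 to 1.81), against 3.31% of all genes, and 0 were lower, against 5.69%. Under DHT 0 of the 10 were higher, against 10.9% of all genes, and 1, CCND3, was lower, against 14.5%. CCNE2, at 0.651 of its LNCaP level under DHT (0.491 to 0.859), was past 1.5-fold as a plain ratio but not on log2(CPM + 1), the scale counted. E2F1 was then lower in BicR, at 0.781 of its LNCaP level (0.692 to 0.881).

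**Figure D3:**
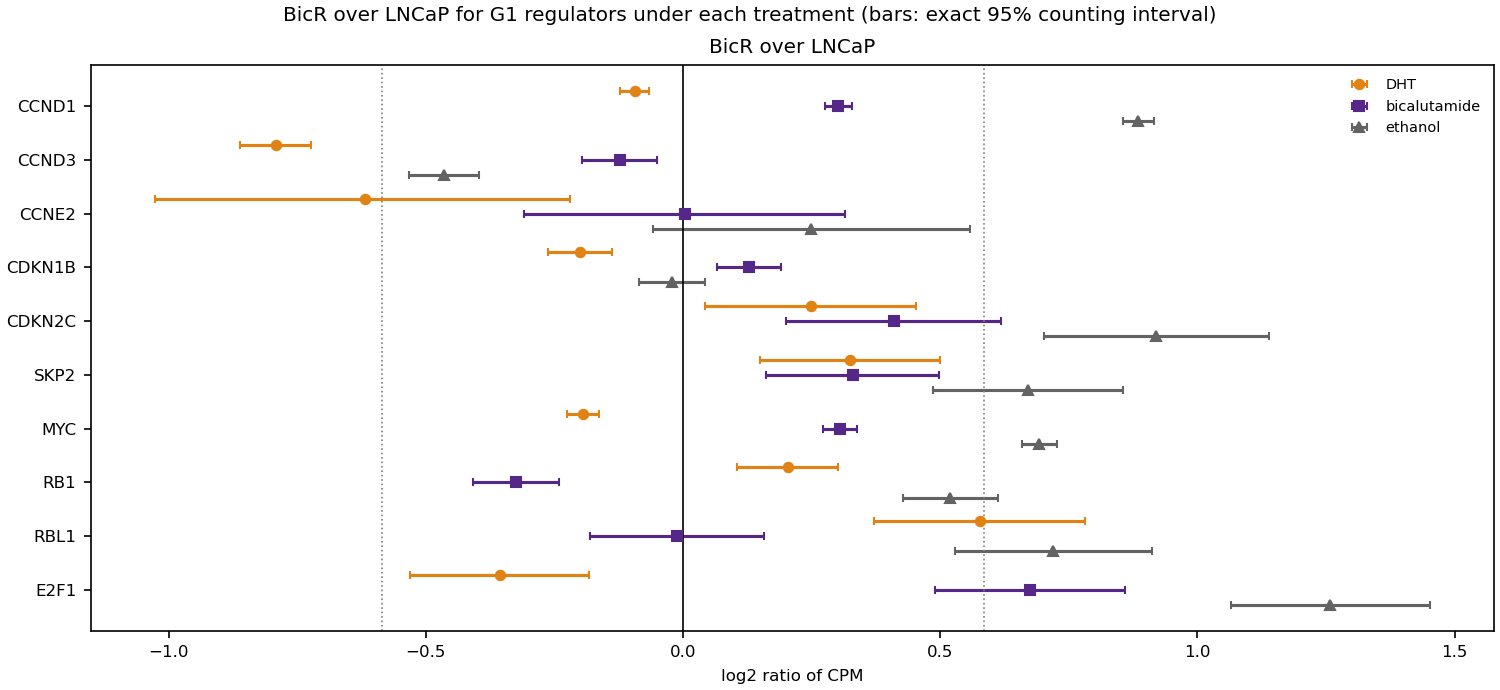
Log2 ratio of CPM in BicR over LNCaP for each G1 regulator under DHT (orange circles), bicalutamide (purple squares) and ethanol (grey triangles); bars are exact 95% counting intervals and dotted lines mark 1.5-fold. CDKN2C and SKP2 lie right of 0 and CCND3 left of 0 under all 3 treatments, while the ethanol points, which use the LNCaP ethanol library, reach 2.39-fold for E2F1.

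Fitted over both lines and all 6 libraries (cell line plus treatment, edgeR's quasi-likelihood test, Benjamini-Hochberg adjustment over 13885 genes), 0 of the 10 genes passed an adjusted p of 0.05 in any of the 4 comparisons. The error of this fit comes from where the lines disagree, so a gene that moves in opposite directions in the lines has a small estimate and a large SE. For DHT against ethanol 0.166% of all genes passed, and the estimates of the 10 genes ran from -0.56 on the log2 scale for CCNE2 (SE 0.33) to 0.34 for MYC (SE 0.25), with E2F1 at 0.32 (SE 0.36) and CCND1 at 0.30 (SE 0.27), all at an adjusted p of 1.00. For DHT against bicalutamide 0.166% passed, with CCNE2 at -0.53, RBL1 at -0.47 and RB1 at -0.42, and the smallest adjusted p of the 10 was 0.731. For bicalutamide against ethanol 0.0% passed, 0 genes of 13885 in edgeR, against 0 in DESeq2 and 1 in limma on RPKM. Without adjustment, 52 genes had a p under 0.05 and a positive estimate there, and 89 a negative one. None of the 10 G1 genes had a p under 0.05 without adjustment in these 3 comparisons.

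For BicR against LNCaP over the treatments 4.42% of all genes passed. Without the LNCaP or the BicR bicalutamide library 0 genes passed in edgeR, with 1506 and 1498 higher and 2102 and 2117 lower at a p under 0.05 without adjustment. CCND3 had an estimate of -0.46 (SE 0.17, adjusted p = 0.144 in edgeR), CDKN2C of 0.52 (SE 0.21, adjusted p = 0.175) and SKP2 of 0.44 (SE 0.18, adjusted p = 0.183). These 3 had an unadjusted p under 0.05. E2F1 had an estimate of 0.53 (SE 0.29, adjusted p = 0.298), RBL1 of 0.43 (SE 0.21, adjusted p = 0.248) and CCND1 of 0.36 (SE 0.22, adjusted p = 0.330). In DESeq2, limma and every other fit tried, 0 of the 10 passed in any comparison, and the smallest adjusted p among them was 0.05995, for E2F1 in BicR against LNCaP without the BicR DHT library, where the alternatives of this estimate reached up to 0.882. Without the LNCaP ethanol library the DHT against ethanol estimate was -0.09 for CCND1 and -0.22 for E2F1, and without the LNCaP DHT library it was -0.05 for CCND1 and -0.37 for E2F1. The sign of both thus turned whichever of these LNCaP libraries was left out. With either left out, only BicR holds both DHT and ethanol. These estimates therefore lean on the BicR ratios given above and are no separate check of them.

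**Figure D4:**
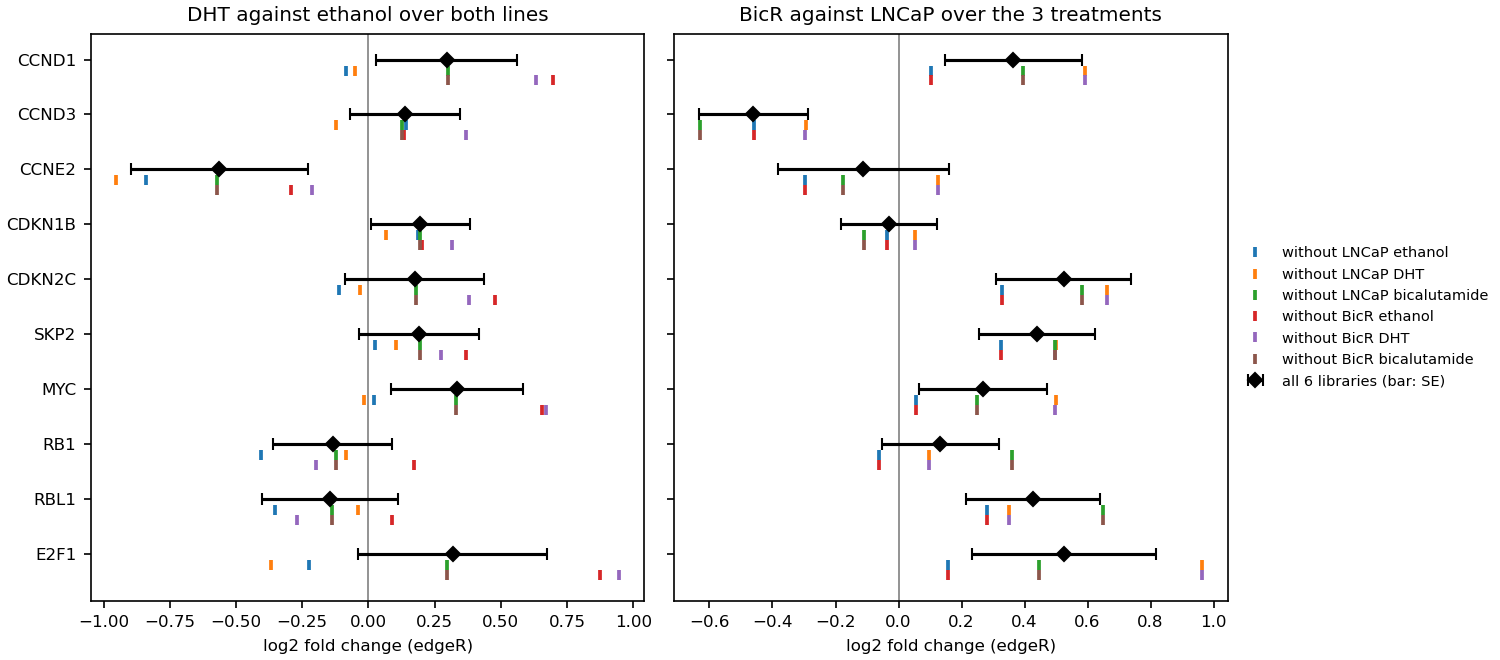
Log2 fold change of each G1 regulator in the edgeR fit for DHT against ethanol (left) and BicR against LNCaP (right): black diamonds are the estimates from all 6 libraries with their SE, and coloured ticks are the estimates with 1 library left out. Ticks for DHT against ethanol lie on both sides of 0 for 7 of the 10 genes, and E2F1 spans -0.37 to 0.95, while CCND3, CDKN2C and SKP2 keep their sides of 0 in the line comparison.

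The other genes of the pathway were followed as lists. Of 12 other cyclins and kinases of G1, 1 was at least 1.5-fold higher in LNCaP under DHT than under ethanol and 1 was lower. CCNA2, the cyclin of S phase, was the higher one at 3.59-fold, with 7.18 CPM under DHT against 2.001 CPM under ethanol and 5.85 CPM under bicalutamide. CCND2, another D cyclin, was the lower one, at 1.60 CPM under DHT, against 5.56 CPM under ethanol and 2.78 CPM under bicalutamide. CCND2 was likewise the 1 of the 12 that was at least 1.5-fold lower under DHT than under ethanol in BicR, at 0.954 CPM against 2.42 CPM. The D cyclins thus differed: CCND2 was lower under DHT than under ethanol in both lines, and CCND1 was lower in BicR and higher in LNCaP.

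Of 5 other CDK inhibitors, 1 passed the test between the lines. CDKN1A (p21), an inhibitor of CDK2 complexes, had 184 CPM under DHT, 229 CPM under bicalutamide and 199.8 CPM under ethanol in BicR, and 443 CPM under DHT, 388 CPM under bicalutamide and 852 CPM under ethanol in LNCaP. It fell by 1.37 on the log2 scale in BicR against LNCaP (SE 0.26, edgeR, adjusted p = 0.0261), and by 1.02 without the LNCaP ethanol library (edgeR, adjusted p = 0.00702). The call was lost without the LNCaP or the BicR bicalutamide library (edgeR, adjusted p = 0.0891 and 0.0882). In LNCaP 2 of the 5 were at least 1.5-fold higher under DHT than under ethanol and 2 were lower. CDKN2A at 1.62-fold and CDKN1C at 1.63-fold were the higher ones, and CDKN1A at 0.520 and CDKN2B at 0.553, with 3.54 CPM under DHT and 6.40 CPM under ethanol, were the lower ones. Reads of CDKN2A and its neighbour CDKN2B may be split, since their loci overlap with an antisense gene. In the turnover list the SKP2 cofactor CKS1B rose in BicR against LNCaP by 0.89 on the log2 scale (SE 0.19, edgeR, adjusted p = 0.0420), and its relative CKS2 rose by 1.36 (SE 0.29, edgeR, adjusted p = 0.0384). CKS1B did not pass with any 1 of the 6 libraries left out (edgeR, adjusted p = 0.0505 to 0.156), and CKS2 did not without the LNCaP or the BicR bicalutamide library (edgeR, adjusted p = 0.131 each). SKP2 and its cofactor were thus higher in BicR in all 3 treatments, and the cofactor was the one that passed.

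The E2F target genes of S phase entry followed the same opposite directions as E2F1. This list was chosen with earlier results of these data known, so the likeness to E2F1 is a description. In LNCaP 13 of 24 were at least 1.5-fold higher under DHT than under ethanol, where 4.88% of all genes were. In the same pair 23 of 24 were higher at all, with a median difference of 0.59 in log2(CPM + 1), against 0.01 over all genes tested. In BicR 0 of 24 reached 1.5-fold and 22 of 24 were lower, with a median of -0.26, against 0.00 over all genes. Bicalutamide also went with lower levels than ethanol in BicR, for 20 of 24, with a median of -0.16. Against bicalutamide 21 of 24 were higher under DHT in LNCaP, 4 of them at least 1.5-fold, and 19 of 24 were lower in BicR. Their summed level was 726 CPM under DHT, 796 CPM under bicalutamide and 863 CPM under ethanol in BicR, and 772 CPM under DHT, 648 CPM under bicalutamide and 538 CPM under ethanol in LNCaP. The libraries thus stood in the order of E2F1 but for 1 exchange, between LNCaP under DHT and BicR under bicalutamide. RRM2, a subunit of the reductase that makes deoxynucleotides, had 11.3 CPM in LNCaP under DHT, against 2.52 CPM under ethanol and 6.36 CPM under bicalutamide. Over both lines 0 of 24 passed for DHT in edgeR, and CDC6, which loads the replicative helicase, rose in BicR against LNCaP (log2 0.96, SE 0.20, edgeR, adjusted p = 0.0384). CDC6 did not pass without either ethanol library or either bicalutamide library (edgeR, adjusted p = 0.110 to 0.130).

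Among 10 other genes of the E2F, DP and pocket families, 8 were higher under DHT than under ethanol in LNCaP and 7 were lower in BicR, with medians of 0.36 and -0.10. E2F7, E2F8 and E2F2 were the 3 at least 1.5-fold higher in LNCaP, and 0 of 10 reached 1.5-fold in BicR. Against bicalutamide 5 of 10 were higher and 5 lower in LNCaP, with a median of -0.02 and 0 at 1.5-fold. E2F7, a repressor of the family, had 2.93 CPM in LNCaP under DHT, 3.09 CPM under bicalutamide and 0.840 CPM under ethanol. For E2F7, E2F8 and E2F2 the LNCaP ethanol library was the low one. The mitosis genes showed this most: 21 of 21 were at least 1.5-fold higher under DHT than under ethanol in LNCaP, and 21 of 21 were so under bicalutamide against ethanol. Between DHT and bicalutamide the LNCaP median of these genes was -0.02, and in BicR the median of DHT against ethanol was 0.07. The levels of CDKN1A and HSPA5, high in the LNCaP ethanol library, and of the mitosis genes, low in it, moved with the low E2F1, CCND1 and MYC levels there, and their part in those differences was not tested.

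**Figure D5:**
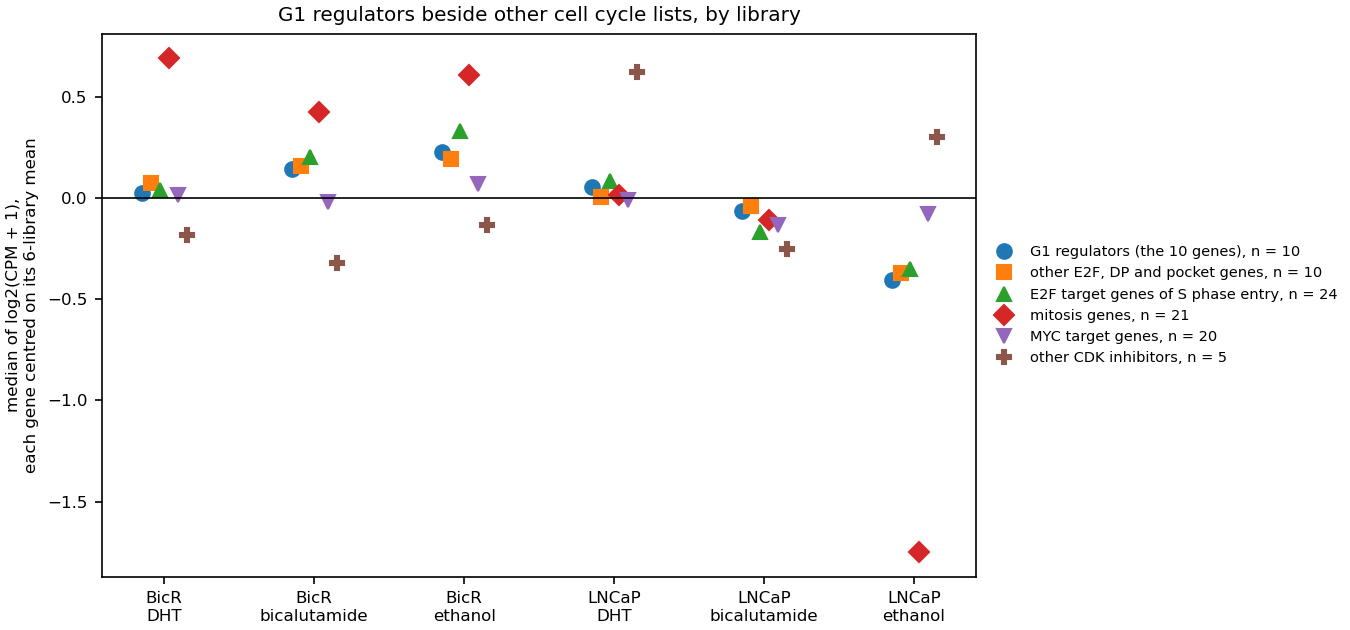
Median over each list of log2(CPM + 1), each gene centred on its mean over the 6 libraries, for the 10 G1 regulators (blue circles) and 5 other lists, by library. Mitosis genes fall to -1.75 in LNCaP under ethanol, where the G1 regulators are at -0.40 and the E2F target genes at -0.35.

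Under DHT, MYC in LNCaP was 1.71-fold its ethanol level and 1.48-fold its bicalutamide level. Of 20 MYC target genes, 0 were at least 1.5-fold higher in LNCaP under DHT than under ethanol and 0 were lower, with a median of 0.12 in log2(CPM + 1). Against bicalutamide 5 of 20 were at least 1.5-fold higher, where 8.87% of all genes were, and 0 were lower, with a median of 0.10. They included HSPE1, a mitochondrial chaperonin whose reads may be shared with pseudogenes, at 107 CPM under DHT and 59.4 CPM under bicalutamide. ODC1, a polyamine enzyme and a well known MYC target, was the 1 of 20 that was at least 1.5-fold higher under DHT than under ethanol in BicR, at 1158 CPM under DHT and 517 CPM under ethanol. MYC itself was 0.926 of its ethanol level there. CAD, an enzyme of pyrimidine synthesis, rose in BicR against LNCaP by 0.69 on the log2 scale (SE 0.15, edgeR, adjusted p = 0.0439), the 1 call of the list, and did not pass with any 1 of the 6 libraries left out (edgeR, adjusted p = 0.0867 to 0.120).

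Markers of other cells also differed between the lines and with DHT. The summed level of 4 fibroblast markers was 25.4 to 27.0 CPM in BicR, against 37.7 to 47.5 CPM in LNCaP, nearly all of it COL1A1. COL3A1 had 7 to 32 counts in BicR and 68 to 102 in LNCaP, DCN had 0 to 5 counts and COL1A2 had 0. In BicR against LNCaP, COL1A1 had a log2 estimate of -0.72 and COL3A1 of -2.09 (edgeR, adjusted p = 0.0420 and 0.0270). Of 4 immune markers, CD68 had 11.3 to 17.6 CPM in BicR and 21.2 to 28.5 CPM in LNCaP, while PTPRC had 0 counts in all libraries and CD3E had 0 or 1. LYZ went the other way from CD68, with 12 to 27 counts in BicR and 0 to 11 in LNCaP. Of 3 endothelial markers, VWF had 10.8 CPM under DHT, 3.05 CPM under bicalutamide and 2.996 CPM under ethanol in BicR, and 8.16 CPM under DHT, 5.12 CPM under bicalutamide and 5.84 CPM under ethanol in LNCaP, while CDH5 was at 0 and PECAM1 at 0 to 12 counts. The part of these markers in the line differences of CCND3, CDKN2C and SKP2, and in the DHT differences, was not tested.

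Among the G1 genes themselves, CDKN2C and SKP2 had the most alike profiles over the 6 libraries, with a root mean square difference of 0.09 in centred log2(CPM + 1), followed by RB1 and RBL1 at 0.13. Of 11060 genes with a mean of at least 5 CPM, those nearest to E2F1 were C17orf93, CDCA7 and NFKBIL2, at 0.10 to 0.12. Those nearest to CCND1 were LOC100132247, CHEK2 and FBXL19, at 0.07 to 0.09. CDKN2C was nearest to INCENP and LOC100129534, each at 0.04, and to RFC5 at 0.05, and CCND3 was nearest to TIGD5, HMHA1 and CDIPT, at 0.01 to 0.03. CDIPT, for example, had 81.4 CPM under DHT, 79.6 CPM under bicalutamide and 81.9 CPM under ethanol in BicR, and 135 CPM under DHT, 85.5 CPM under bicalutamide and 114 CPM under ethanol in LNCaP, the same order of LNCaP libraries as CCND3. Such likeness over 6 libraries is a description of the profiles.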

How the data were processed

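Total RNA of 6 libraries was isolated with ISOGEN and read on a SOLiD 3 Plus instrument, per the labels' protocols. The series' design text speaks of short RNAs, while the table lists gene symbols, and this difference could not be settled from the sources used here. The deposited table, per its file headers, holds raw counts for each gene symbol and the authors' RPKM. The submitters' processing notes name hg19. How reads were aligned and counted, with which annotation and whether by strand, is not given in the sources used here. Here RPKM served for levels between genes and as an alternative scale.

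Counts were scaled by TMM and fitted in edgeR 4.0.16 (R 4.3.3) with cell line plus treatment, which left 2 residual and 6.8 prior degrees of freedom. Tests were 2-sided. Nothing in the labels says that libraries came from separate cultures, so p-values cover the spread of these 6 libraries and no more. Alternatives used DESeq2 1.42.0, limma 3.58.1 on log2(RPKM + 0.1), library totals, no filter and each library left out. Within a line or treatment, 1.5-fold was counted on log2(CPM + 1), which understates the change of low genes. Pair intervals (95%) condition on the summed count. The fitting was tested on simulated data. The genes, lists and motifs were chosen with earlier results of these data known. Named were all 10 genes, up to 3 highest and 3 lowest passing genes per list and comparison, check genes for DHT, and the 3 most alike genes of the 4 with the widest ranges of log2(CPM + 1), a scale that places CCNE2, low in CPM, outside them. Not every gene so picked is printed.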

Additional observations from a re-analysis of the deposited data

How the results depend on the processing

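With 1 library per group and no replicate numbers to share, the depth limits the low genes (CCNE2 rests on 79 counts in BicR under DHT), and intervals cover counting error only. The fit of cell line plus treatment already compares treatments within a line and lines within a treatment. Beyond that, by replicate number, no paired analysis was possible because each group has 1 library, so the groups compared share fewer than 2 replicate numbers. Of 40 tested estimates of the G1 genes, 24 changed sign in an alternative and 0 passed the threshold in any. The cause of these changes was not tested.

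Genes called over the whole table moved most. For DHT against ethanol there were 99 in DESeq2, 64 with library totals, 77 without the filter and 0 to 273 with a library left out. For DHT against bicalutamide there were 122 in DESeq2, 54 with library totals, 74 without the filter and 0 to 197 with a library left out. For bicalutamide against ethanol limma called 1, and leaving out a library gave 0 to 197. For BicR against LNCaP there were 1490 in DESeq2, 1040 with library totals, 1360 without the filter and 0 to 694 with a library left out.

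Outside the leave-out fits, the sign turned for CDKN1B in DHT against bicalutamide (limma, -0.0136) and in BicR against LNCaP (library totals 0.0533, limma 0.0115), and, in bicalutamide against ethanol, for CCNE2 (library totals 0.0307, limma 0.0153), MYC (DESeq2, -0.0004) and E2F1 (library totals 0.0368, limma 0.0614). With a library left out, DHT against ethanol ran from -0.0855 to 0.6957 for CCND1, -0.1235 to 0.3691 for CCND3, -0.1106 to 0.4798 for CDKN2C, -0.0175 to 0.6712 for MYC, -0.4074 to 0.1738 for RB1, -0.351 to 0.0887 for RBL1 and -0.3691 to 0.9472 for E2F1. DHT against bicalutamide ran from -0.392 to 0.3017 for CCND1, -0.0574 to 0.2021 for CDKN1B, -0.0889 to 0.3325 for CDKN2C, -0.1119 to 0.0687 for SKP2, -0.0371 to 0.6624 for MYC and -0.3925 to 0.9347 for E2F1. Bicalutamide against ethanol ran from -0.0446 to 0.7365 for CCND1, -0.4424 to 0.0629 for CCND3, -0.2895 to 0.2572 for CCNE2, -0.2333 to 0.357 for CDKN2C, -0.2936 to 0.3439 for MYC, -0.0696 to 0.6171 for RB1, -0.0103 to 0.6492 for RBL1 and -0.4981 to 0.6019 for E2F1. BicR against LNCaP ran from -0.2984 to 0.126 for CCNE2, -0.1106 to 0.0535 for CDKN1B and -0.0615 to 0.3617 for RB1.

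At 2-fold in place of 1.5-fold, still counted on log2(CPM + 1), 1 of the 10 genes was higher in BicR than in LNCaP under ethanol and 0 in the other pairs. As plain ratios of DHT to ethanol, E2F1 in LNCaP, at 2.16, and CCNE2 in BicR, at 0.495, were also past 2-fold. With a pseudocount of 5 CPM, DHT against bicalutamide in LNCaP kept 1 higher and 1 lower, both BicR counts for DHT were 0, BicR against LNCaP under bicalutamide was 0 and under ethanol 3. With 0.1 CPM, 2 were lower in BicR than in LNCaP under DHT. In LNCaP, DHT against bicalutamide had 1 higher with library totals, and 0 higher and 1 lower on RPKM. On RPKM the BicR counts for DHT and the count for BicR against LNCaP under bicalutamide were 0. Set against bicalutamide in place of ethanol, 2 were lower under DHT in LNCaP. The count of genes whose lines do not overlap, tried without the LNCaP ethanol library after seeing the data, was 2 higher and 1 lower in both cases. No share of all genes is given beside the counts of this paragraph, so they describe the 10 genes only.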
